A study of Homo sapiens with 44 samples.

Results

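The genes described were 9 components of the bone morphogenetic protein (BMP) and activin pathway: the ligand genes BMP2, BMP4 and BMP6, the activin subunit gene INHBA, the antagonist genes GREM1 and FST, and the target genes ID1, ID2 and ID3. They were picked out by gene symbol in a count table of 40663 symbols. Each of the 9 was among the 9513 genes that passed the filter on low counts and were tested.

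The samples were 44 bulk RNA-seq libraries of Ccd-18Co, a fibroblast line established from human colon, in 11 groups of 4 replicates. One group was left unstimulated, and each of the others received 1 cytokine for 24 h: IL-1β at 0.1 ng/ml, or, at 10 ng/ml, TNF, TGF-β1, oncostatin M (OSM), IFNγ, IFNα, IL-22, IL-17A, IL-13 or IL-6. One figure legend of the study gives 0.01 ng/ml for IL-1β, a concentration that differs from the sample labels and the methods. All groups, the unstimulated one included, had been kept in serum-free medium for 72 h beforehand, so all lacked serum, itself a source of BMP activity, from then on. The model is a single line used up to passage 20. Nothing in the labels states that replicates came from separate cultures, so the p-values measure only the spread between these libraries. Fewer cells and less RNA per cell cannot be told apart in bulk samples, because levels are relative to each library's total.

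BMP ligands bind receptor serine/threonine kinases, which phosphorylate SMAD1, SMAD5 and SMAD9. These join SMAD4 and switch on target genes, among which the ID genes are the best known. ID proteins carry a helix-loop-helix but no DNA-binding region, so they pair with basic helix-loop-helix transcription factors and keep them off DNA. Activin A, a dimer of the INHBA product, uses related receptors but passes its signal through SMAD2 and SMAD3, the route also used by TGF-β1. Gremlin 1 (GREM1) captures BMP2 and BMP4, and follistatin (FST) captures activins. In the intestine, stromal cells near the crypt base are known for secreting gremlin 1, and those nearer the surface for secreting BMP ligands.

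Total counts ranged from 742173 to 2213424 per library (median 1480883). At these depths 3 counts, taken here as the limit of measurement, equalled 1.39 to 3.85 CPM, the unit of level used here (counts scaled to a common total). This limit reflects counting error alone. Summed fibroblast markers (9 genes, such as COL1A1 and PDGFRA) lay between 17243 and 52357 CPM in every library. They were 21306 to 27613 CPM after TNF, wholly below the 29198 to 41194 CPM of controls, and 17243 to 34347 CPM after IFNγ, overlapping them, and their part in the results was not tested. Summed epithelial markers (5 genes) stayed at or below 28.4 CPM, with EPCAM, CDH1 and KRT20 at or under 3 counts everywhere. Endothelial and immune markers (5 genes each) summed to at most 6.03 and 4.01 CPM, with KDR and CD3E at 0. Smooth muscle and glial markers (5 genes) summed to between 217 and 1094 CPM, and their part in the results below was not tested. Of 66 pairs of replicates 0 were identical, and counts of every pair differed by more than sampling noise (chi-square per degree of freedom at least 3.21).

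Of the 90 combinations of gene and cytokine, 30 passed edgeR's quasi-likelihood test at an adjusted p under 0.05 (Benjamini-Hochberg over all 9513 genes). After TNF 6 of the 9 genes were higher and 1, BMP4, was lower, where 5.37% of all tested genes rose and 6.09% fell. Of these 7 calls 4 were left without unstimulated replicate 2 (BMP4, GREM1 and ID1 were lost), and 4 with only the TNF and unstimulated libraries in the fit, where BMP4 did not pass the filter. After IFNα 5 genes were higher and 0 lower (background 4.99% up, 4.86% down). IL-1β raised 4 and lowered 0 (3.46% up, 3.92% down), IFNγ raised 4 and lowered 0 (5.52% up, 5.13% down), and TGF-β1 raised 4 and lowered 0 (2.61% up, 3.08% down). The 9 genes are few, belong to linked pathways and were chosen with earlier results of these data known, so nothing is read from shares above the background.

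IL-17A raised 2 and lowered 0 (0.599% of all genes up, 0.925% down), OSM raised 1 and lowered 1 (1.42% up, 2.54% down), and IL-13 raised 0 and lowered 2 (1.53% up, 2.4% down). IL-6 and IL-22 gave 0 calls among the 9 genes in edgeR. For IL-6, 0 genes had an unadjusted p under 0.05 and DESeq2 called 0, where 0.0105% of all genes rose and 0% fell. For IL-22, 3 had an unadjusted p under 0.05 and DESeq2 called 1, FST, where edgeR called 0% of all genes up and 0% down. The heat map of fold changes shows the values of all 90 combinations.

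**Figure D1:**
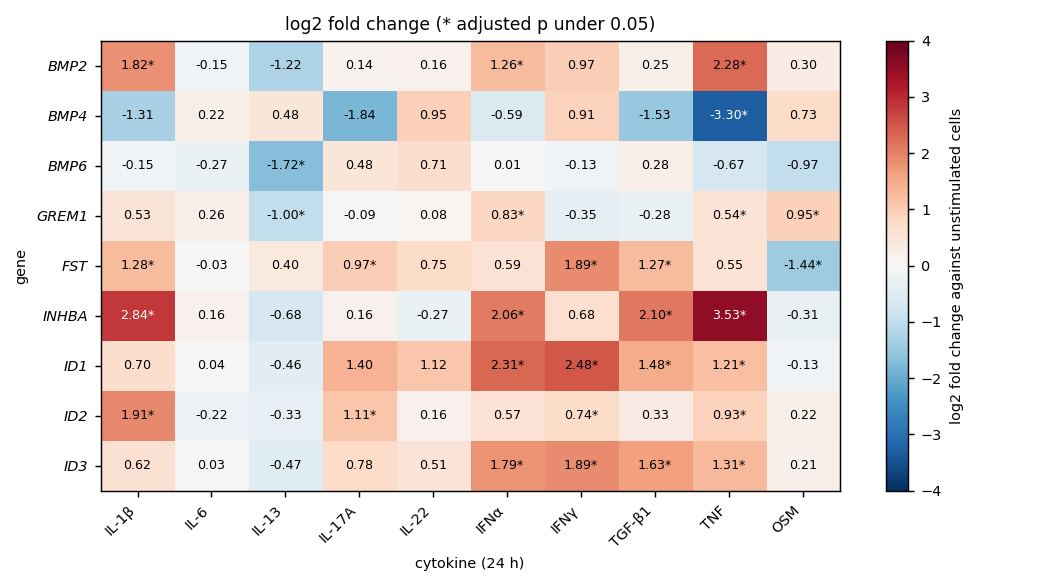
Log2 fold change of the 9 genes (rows) after each cytokine (columns) against unstimulated cells, from edgeR with 4 libraries a group; color runs from blue (lower) to red (higher), and an asterisk marks an adjusted p under 0.05. INHBA after TNF (3.53) is the highest value, and the BMP4 value after TNF (-3.30) is a fitted value at the limit of measurement.

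BMP2 (chr20:6767686-6780246, plus strand; all coordinates are GRCh38 from GENCODE release 44) was the ligand gene that rose under inflammatory cytokines. Unstimulated libraries, listed here and below in the order of replicates 1 to 4, held 16.2, 42.3, 55.6 and 36.2 CPM. After TNF they held 132, 172, 179 and 238 CPM, and after IL-1β 126, 110.0, 153 and 137 CPM. All 8 stimulated libraries lay above all 4 unstimulated ones, and the TNF and IL-1β groups overlapped. The rise was 4.86-fold for TNF (log2 fold change 2.28 ± 0.35, adjusted p = 4.50e-06, with the SE after ±) and 3.54-fold for IL-1β (log2 fold change 1.82 ± 0.34, adjusted p = 1.87e-04). After IFNα the values spread widely, at 60.6, 40.8, 117 and 140.1 CPM, and replicate 2 lay inside the unstimulated range. That rise (log2 fold change 1.26 ± 0.34, adjusted p = 0.00995) was lost when 1 library was left out, with adjusted p = 0.0626 with unstimulated replicate 1 left out and 0.0826 with IFNα replicate 4 left out. After IFNγ the values were 42.9, 53.2, 93.6 and 103 CPM, with an adjusted p of 0.0615 that moved to 0.0249 with unstimulated replicate 3 left out, 0.0230 with IFNγ replicate 1 left out and 0.0289 with IFNγ replicate 2 left out. IL-13 gave the lowest group, at 12.6, 17.0, 15.6 and 18.6 CPM, with a log2 fold change of -1.22 and an adjusted p of 0.0554, or 0.0162 with unstimulated replicate 1 left out. The remaining 5 cytokines left group means between 33.4 and 45.8 CPM, beside 37.6 ± 16.4 CPM (SD) without stimulation.

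BMP4 (chr14:53949736-53958761, minus strand), the closest relative of BMP2, was scarce, with a median of 6.5 counts per library. It passed the filter on low counts only through the groups in which it was higher. Unstimulated libraries held 9.30, 6.56, 0.704 and 5.46 CPM and TNF libraries 0, 0, 0 and 1.61 CPM. None of the TNF libraries exceeded 3 counts, so the decrease is given as a bound: BMP4 was at least 2.57-fold lower after TNF than without stimulation, computed against 3 counts per library (adjusted p = 0.0304). Because of the way BMP4 passed the filter, this p is given as a description. Unstimulated replicate 3, at 0.704 CPM, overlapped the TNF group. The call was lost in 6 of 8 fits that left out 1 library, with adjusted p = 0.0810 with unstimulated replicate 1 left out, 0.0647 with unstimulated replicate 2 left out, 0.0502 with unstimulated replicate 4 left out, 0.0978 with TNF replicate 1 left out, 0.0815 with TNF replicate 2 left out and 0.0993 with TNF replicate 3 left out. The other 9 cytokines gave adjusted p of at least 0.382 for BMP4 against unstimulated cells. Group means among them ran from 1.43 ± 0.764 CPM after IL-17A to 10.8 ± 3.69 CPM after IL-22. Of the 36 pairs of these 9 cytokines 1 differed, IFNγ above IL-17A by a log2 difference of 2.75 (adjusted p = 0.0424). IL-17A libraries held 4, 1, 1 and 4 counts, around the limit of 3, so this difference is a fitted value near that limit. IFNγ was among the groups in which BMP4 was higher, so this p too is given as a description.

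BMP6 (chr6:7726099-7881728, plus strand), a ligand known for iron regulation in the liver, moved after IL-13 alone among the 10 cytokines by the call. It went from 22.0, 29.9, 21.8 and 33.5 CPM to 12.6, 8.49, 8.66 and 1.78 CPM, and all 4 IL-13 libraries lay below all 4 unstimulated ones. The decrease was 3.29-fold (log2 fold change -1.72 ± 0.37, adjusted p = 0.00247). OSM libraries held 13.4, 17.8, 6.0 and 17.3 CPM, also below every unstimulated library, with an adjusted p of 0.119. The highest group was IL-22, at 42.5, 46.7, 38.5 and 47.4 CPM, all above the unstimulated range, with an adjusted p of 0.428. The 3′ end of BMP6 overlaps that of TXNDC5, a gene on the opposite strand with a median of 281 counts against 31 for BMP6. The study ran kallisto with default settings, which do not use strand, so reads from the overlap cannot be told apart and BMP6 values are uncertain.

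INHBA (chr7:41667168-41705834, minus strand) had the highest fold changes of the 9 genes. Unstimulated libraries held 44.6, 62.7, 59.1 and 66.3 CPM. TNF libraries held 468, 548, 684 and 981 CPM and IL-1β libraries 346, 307, 489 and 524 CPM. The lowest of these 8 libraries was several times the highest unstimulated one. INHBA rose 11.6-fold after TNF (log2 fold change 3.53 ± 0.28, adjusted p = 6.42e-13) and 7.18-fold after IL-1β (log2 fold change 2.84 ± 0.27, adjusted p = 1.17e-10). TGF-β1 libraries held 235, 186, 249 and 321 CPM and IFNα libraries 125, 165, 317 and 365 CPM. Both groups also lay wholly above the unstimulated range, with rises of 4.28-fold (log2 fold change 2.10 ± 0.27, adjusted p = 5.16e-07) and 4.18-fold (log2 fold change 2.06 ± 0.27, adjusted p = 9.75e-08). After IFNγ the libraries held 83.6, 89.7, 88.4 and 108 CPM, again above every unstimulated library but by less, with an adjusted p of 0.102. IL-6, IL-13, IL-17A, IL-22 and OSM gave adjusted p of 0.195 or more, with group means from 36.3 ± 9.35 CPM to 64.6 ± 18.1 CPM. The 4 calls were kept in every setting tried and with any 1 library left out.

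**Figure D2:**
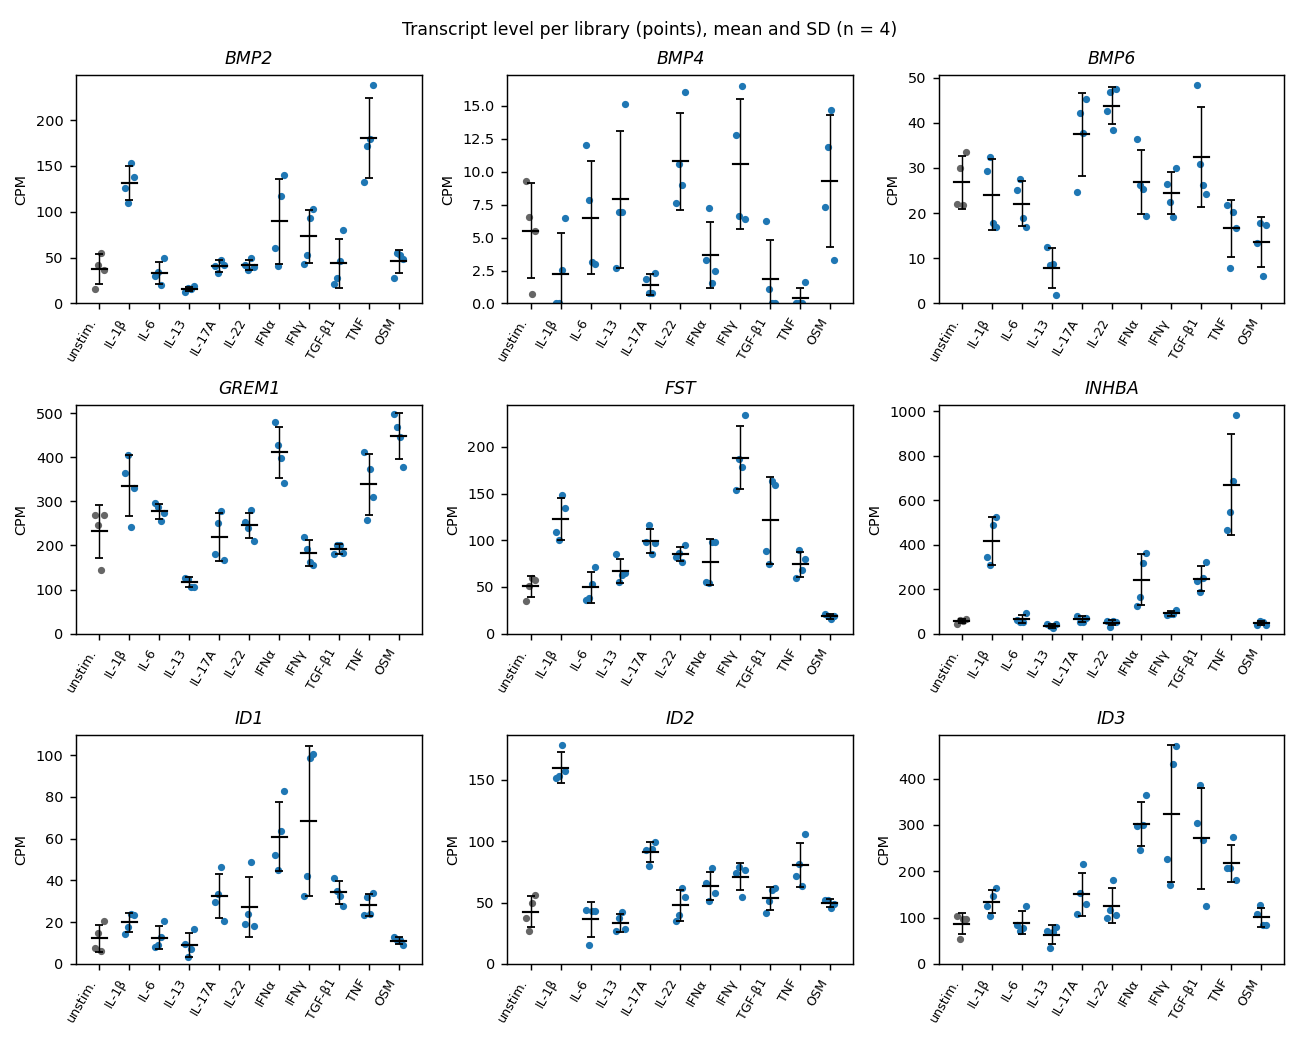
CPM (linear axes from 0) of each of the 9 genes in every library (points) by group, with the mean (long bar) and SD (n = 4); gray points are unstimulated cells. INHBA runs from 24.2 CPM in an IL-13 library to 981 CPM in a TNF library, while ID1 and ID3 are highest after IFNα and IFNγ.

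FST (chr5:53480626-53487134, plus strand) encodes follistatin, the antagonist of activin A. IFNγ gave the highest group. Libraries went from 35.3, 51.0, 59.8 and 57.4 CPM without stimulation to 154, 187, 179 and 234 CPM after IFNγ, 3.72-fold (log2 fold change 1.89 ± 0.24, adjusted p = 6.51e-08). IL-1β libraries held 108, 100.1, 148 and 135 CPM and TGF-β1 libraries 88.9, 74.4, 163 and 159 CPM. All 12 of these libraries lay above the unstimulated range, and the IL-1β and TGF-β1 groups overlapped (2.42-fold, adjusted p = 1.41e-04, and 2.40-fold, adjusted p = 4.15e-04). TNF libraries held 59.3, 89.6, 68.3 and 79.8 CPM, with an adjusted p of 0.139. IL-22 libraries held 82.0, 85.9, 76.9 and 94.8 CPM, all above the unstimulated range. For IL-22 the log2 fold change was 0.75, with an adjusted p of 0.189 in edgeR and 0.0478 in DESeq2. IL-17A gave 97.9, 116, 85.7 and 97.6 CPM, again above every unstimulated library. Its rise (log2 fold change 0.97 ± 0.24, adjusted p = 0.0209) did not pass with some libraries left out (adjusted p = 0.130 with unstimulated replicate 1 left out, 0.0711 with unstimulated replicate 2 left out and 0.0784 with IL-17A replicate 2 left out). OSM lowered FST 2.70-fold, to 21.3, 19.0, 15.3 and 19.0 CPM (log2 fold change -1.44 ± 0.26, adjusted p = 2.46e-04), and all 4 libraries were below the lowest unstimulated one. OSM was the only one of the 10 cytokines with a called decrease of FST, and IL-6, with 49.6 ± 16.4 CPM, was next lowest.

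Levels of the ligand subunit and its antagonist can be set side by side per kilobase (kb) of the MANE transcript, the reference transcript of each gene. In unstimulated libraries the ratio of INHBA to FST in CPM per kb was 0.376 to 0.481, with FST the higher in every library on this scale. The lengths used were 6046 bases for INHBA and 2299 for FST, and which transcripts the cells used is unknown. In CPM not divided by length, INHBA was the higher in unstimulated replicates 1, 2 and 4 (44.6, 62.7 and 66.3 against 35.3, 51.0 and 57.4). The side of equality on which a library lies can thus depend on these lengths, but the order of the groups does not. After TNF the ratio was 2.33 to 4.68, and after IL-1β 1.17 to 1.48, so INHBA was the higher in all 8 libraries. IFNα gave 0.855 to 1.41 and OSM 0.728 to 1.27, each with libraries on both sides of equality. After TGF-β1 the ratio was 0.579 to 1.00. IFNγ gave 0.176 to 0.207, IL-13 0.148 to 0.266, IL-17A 0.176 to 0.317 and IL-22 0.140 to 0.273, all wholly below the unstimulated range. IL-6, at 0.380 to 0.646, overlapped it. OSM and TGF-β1 ratios overlapped, although FST was lower than in controls after OSM and both transcripts were higher than in controls after TGF-β1. These ratios are of transcripts, were chosen after the values had been seen and were not tested.

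**Figure D3:**
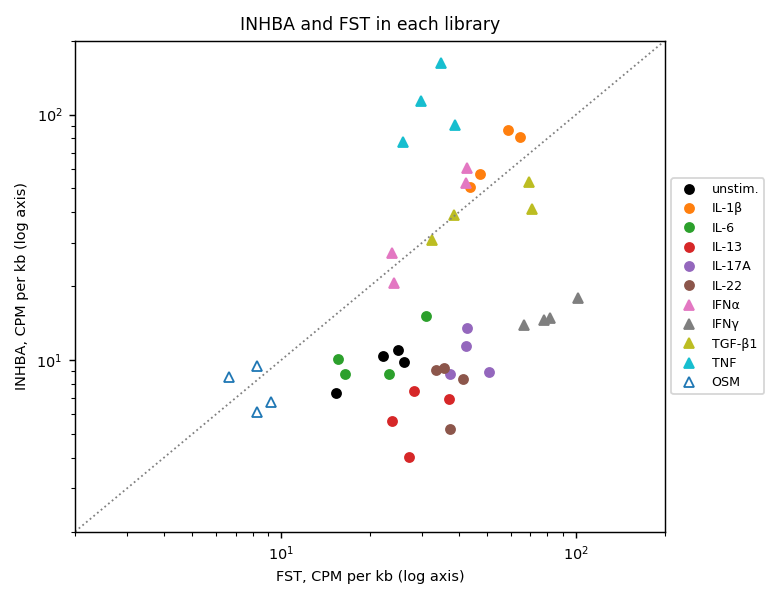
INHBA against FST in CPM per kb of transcript in each of the 44 libraries, both on log axes; symbols mark the groups and the dotted line marks equal levels. The 4 TNF libraries lie farthest above the line (ratios 2.33 to 4.68), and the 4 IFNγ libraries lie to the right and below it (ratios 0.176 to 0.207).

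GREM1 (chr15:32718004-32745106, plus strand) moved by smaller factors from a high starting count. Unstimulated libraries held 269, 246, 144 and 268 CPM. OSM libraries held 499, 469, 446 and 377 CPM and IFNα libraries 479, 428, 398 and 341 CPM, all above the unstimulated range. GREM1 rose 1.93-fold after OSM (log2 fold change 0.95 ± 0.18, adjusted p = 3.66e-04) and 1.77-fold after IFNα (log2 fold change 0.83 ± 0.18, adjusted p = 7.16e-04). IL-13 lowered it 2.00-fold, to 127, 125, 107 and 107 CPM (log2 fold change -1.0 ± 0.18, adjusted p = 2.62e-04), and all 4 libraries lay below unstimulated replicate 3, the lowest control. TNF gave 412, 258, 374 and 309 CPM, overlapping the controls in 1 library. That rise (log2 fold change 0.54 ± 0.18, adjusted p = 0.0351) was lost at adjusted p = 0.0528 with unstimulated replicate 2 left out, 0.170 with unstimulated replicate 3 left out, 0.132 with TNF replicate 1 left out and 0.0927 with TNF replicate 3 left out. IL-1β gave 365, 405, 242 and 330.1 CPM with an adjusted p of 0.0561, which became 0.0441 with unstimulated replicate 1 left out, 0.0423 with unstimulated replicate 4 left out and 0.0181 with IL-1β replicate 3 left out. GREM1 and FST, both secreted antagonists, were called in opposite directions after OSM.

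ID1 (chr20:31605283-31606515, plus strand) and ID3 (chr1:23557926-23559501, minus strand) were highest after the interferons. ID1 libraries held 7.83, 14.6, 6.33 and 20.5 CPM without stimulation, 32.4, 42.4, 98.8 and 100.4 CPM after IFNγ and 52.3, 44.8, 63.6 and 82.8 CPM after IFNα. Both interferon groups lay wholly above the controls, and IFNγ replicates 3 and 4 stood well above replicates 1 and 2. The rises were 5.58-fold (log2 fold change 2.48 ± 0.39, adjusted p = 9.26e-06) and 4.96-fold (log2 fold change 2.31 ± 0.39, adjusted p = 2.34e-05). TGF-β1 gave 41.3, 35.1, 32.7 and 27.9 CPM and TNF 23.3, 31.9, 24.0 and 33.7 CPM, above every control as well. The call after TGF-β1 (log2 fold change 1.48 ± 0.40, adjusted p = 0.0163) was lost at adjusted p = 0.0601 with unstimulated replicate 1 left out, 0.0592 with unstimulated replicate 3 left out and 0.0570 with TGF-β1 replicate 1 left out. The call after TNF (log2 fold change 1.21 ± 0.40, adjusted p = 0.0373) was lost at adjusted p = 0.114 with unstimulated replicate 1 left out, 0.0560 with unstimulated replicate 2 left out, 0.129 with unstimulated replicate 3 left out, 0.0672 with TNF replicate 2 left out and 0.0879 with TNF replicate 4 left out. IL-17A gave 29.7, 33.5, 46.5 and 20.7 CPM and an adjusted p of 0.0569, or 0.0250 with unstimulated replicate 4 left out and 0.0458 with IL-17A replicate 4 left out.

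By mean CPM, ID3 was the most abundant of the ID transcripts in every group but IL-1β. There ID2 averaged 160 CPM and ID3 135 CPM. Its libraries held 103, 53.2, 96.4 and 96.3 CPM without stimulation, 226, 170.3, 431 and 469.9 CPM after IFNγ and 298, 247, 300.3 and 364 CPM after IFNα. The rises were 3.71-fold (log2 fold change 1.89 ± 0.29, adjusted p = 5.82e-06) and 3.45-fold (log2 fold change 1.79 ± 0.29, adjusted p = 1.15e-05), and in IFNγ the libraries split as they did for ID1. TGF-β1 gave 305, 386, 269 and 124 CPM (log2 fold change 1.63 ± 0.29, adjusted p = 2.08e-04) and TNF 207, 208, 274 and 181 CPM (log2 fold change 1.31 ± 0.29, adjusted p = 0.00125). All 16 libraries of these cytokines lay above all 4 controls. Unstimulated replicate 2 was low for ID3. Without it the rises after IFNα and TNF had log2 fold changes of 1.62 and 1.15, and the 4 calls were kept. IL-1β libraries, at 104 to 163 CPM, and IL-17A libraries, at 107 to 215 CPM, also lay above all 4 controls but by less. Their adjusted p were 0.246 for IL-1β and 0.203 for IL-17A. Over the 11 group means ID1 and ID3 had a Pearson correlation of 0.95, whereas ID2 had 0.48 with ID1 and 0.48 with ID3. The groups share their controls and scaling, and the values are descriptive.

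ID2 (chr2:8678845-8684461, plus strand) was highest after IL-1β. Libraries held 37.7, 27.0, 49.3 and 56.0 CPM without stimulation and 151, 153, 179 and 157 CPM after IL-1β, 3.76-fold (log2 fold change 1.91 ± 0.24, adjusted p = 6.52e-08). The lowest IL-1β library was higher than any library of the other 10 groups. IL-17A gave 92.8, 79.6, 93.7 and 99.4 CPM (log2 fold change 1.11 ± 0.23, adjusted p = 0.00536) and TNF 72, 81.8, 63.8 and 106 CPM (log2 fold change 0.93 ± 0.23, adjusted p = 0.00504), both wholly above the controls. The IL-17A call was lost at adjusted p = 0.0561 with unstimulated replicate 2 left out. After IFNγ the libraries held 73.8, 78.9, 54.6 and 76.9 CPM, with replicate 3 inside the control range, and the call (log2 fold change 0.74 ± 0.24, adjusted p = 0.0324) was lost at adjusted p = 0.0785 with unstimulated replicate 1 left out, 0.151 with unstimulated replicate 2 left out and 0.0784 with IFNγ replicate 4 left out. After TGF-β1, which raised ID1 and ID3, ID2 had a log2 fold change of 0.33 (adjusted p = 0.493). The difference between ID genes in their response to TGF-β1 was not tested.

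The composition of the ID transcripts, in CPM per kb, differed accordingly. In unstimulated libraries ID3 made up 61.1% to 74.5% of the summed ID1, ID2 and ID3 level, ID2 20.0% to 26.1% and ID1 4.42% to 16.2%. After IL-1β the share of ID2 was 38.2% to 48.0%, above every control library. After IL-13, at 17.9% to 42.3%, it overlapped both the IL-1β and the control libraries, and after IL-17A, at 20.9% to 33.4%, the control libraries. After IFNα the share of ID2 was 8.71% to 13.6%, below every control library. After TGF-β1 it was 8.06% to 23.0% and after IFNγ 7.05% to 21.5%, both overlapping the control libraries. Without stimulation the mean levels per kb of all 9 genes, with their SD, were 91.8 ± 24.1 for ID3, 32.7 ± 9.86 for ID2, 22.1 ± 4.80 for FST, 15.9 ± 4.08 for GREM1, 12.5 ± 6.64 for ID1, 10.6 ± 4.63 for BMP2, 9.62 ± 1.58 for INHBA, 7.08 ± 1.54 for BMP6 and 2.85 ± 1.86 for BMP4, all in CPM per kb. The target genes ID3 and ID2 thus stood at the top of that order and BMP4 at its foot. The order depends on the lengths used, which were 14575 bases for GREM1 and 1299 for ID2. In CPM not divided by length GREM1 was highest, at 232 CPM, followed by ID3 at 87.2 CPM. INHBA and FST, at 58.2 and 50.9 CPM, then stood above ID2 at 42.5 CPM, and BMP4 was again lowest, at 5.51 CPM.

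Promoter sequences are shown for ID1 and ID3, which moved together, and for INHBA, which rose most. Each is the 250 bases before the RefSeq start on GRCh38.p14, written 5′ to 3′ on the strand of the gene, with any match to a searched motif in capitals. The ID1 window is chr20:31605039-31605288, plus strand, the ID3 window is chr1:23559502-23559751, minus strand, and the INHBA window is chr7:41703091-41703340, minus strand. The INHBA window lies inside an intron of longer transcripts of that gene, and the others end at the first exon of the gene.
ID1: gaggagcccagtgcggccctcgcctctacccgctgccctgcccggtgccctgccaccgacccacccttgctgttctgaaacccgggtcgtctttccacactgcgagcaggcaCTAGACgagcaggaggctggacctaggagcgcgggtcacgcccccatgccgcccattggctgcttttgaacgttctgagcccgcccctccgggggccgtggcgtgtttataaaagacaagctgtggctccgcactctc
ID3: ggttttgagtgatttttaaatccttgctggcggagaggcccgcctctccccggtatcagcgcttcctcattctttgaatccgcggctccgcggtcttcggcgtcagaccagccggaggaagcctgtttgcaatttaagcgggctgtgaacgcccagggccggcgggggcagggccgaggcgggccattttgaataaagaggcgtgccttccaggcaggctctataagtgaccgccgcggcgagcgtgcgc
INHBA: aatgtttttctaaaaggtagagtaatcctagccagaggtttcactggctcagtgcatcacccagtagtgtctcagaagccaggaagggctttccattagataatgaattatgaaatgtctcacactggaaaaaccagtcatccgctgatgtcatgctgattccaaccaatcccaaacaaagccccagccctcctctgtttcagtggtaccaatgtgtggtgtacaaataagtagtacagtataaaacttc
Both strands were searched for GGCGCC, a GC-rich SMAD motif, GTCTAG, which is part of the palindromic SMAD motif, CAGACA, the CAGA motif of SMAD3, and TTCCNGGAA, a STAT motif. They occur in 16.4%, 4.92%, 13.6% and 0.968% of 35116 RefSeq promoter windows of this length. The ID1 window has 1 match, to GTCTAG on the opposite strand, 138 bases before the start, and the ID3 and INHBA windows have 0.

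Windows were found for 8 of the 9 genes, BMP2 being the exception, and some genes have more than 1 start. FST has 1 GTCTAG match 37 bases before its start. The first of the GREM1 windows has 2 GGCGCC matches and 1 CAGACA match, and BMP4 has 1 GGCGCC match in its first window and 1 CAGACA match in its last. BMP6 and ID2 have 0 matches to any of the motifs. A match describes letters in a window and not a bound site, and no match says only that these letters are not in that window.

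Cytokines that act through related receptors or signals were also compared directly, in the same edgeR model. TNF and IL-1β differed in dose, 10 against 0.1 ng/ml. Between them 1 of the 9 genes passed, where 1.15% of all genes did. This was ID2, lower after TNF with a log2 difference of -0.98 (95% interval -1.44 to -0.52), adjusted p = 0.0145. It was lost at adjusted p = 0.0601 with IL-1β replicate 3 left out, 0.0699 with TNF replicate 1 left out and 0.0972 with TNF replicate 3 left out. INHBA differed by 0.69 (95% interval 0.19 to 1.19) and FST by -0.73 (95% interval -1.20 to -0.26), with adjusted p of 0.202 and 0.126. For GREM1 the difference was 0.01 (95% interval -0.34 to 0.37) and for BMP2 0.46 (95% interval -0.20 to 1.11).

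IFNγ and IFNα, both at 10 ng/ml, differed for 3 of the 9 genes, where 9.39% of all genes differed. FST was higher after IFNγ, by a log2 difference of 1.30 (95% interval 0.83 to 1.77), adjusted p = 9.89e-05. GREM1 and INHBA were lower after IFNγ, with log2 differences of -1.17 (95% interval -1.54 to -0.81), adjusted p = 7.31e-06, and -1.39 (95% interval -1.92 to -0.86), adjusted p = 2.09e-04. These 3 differences held with any 1 library left out. They concern the activin subunit and both antagonists. For the ID genes the differences were 0.17 (95% interval -0.55 to 0.90) for ID1, 0.17 (95% interval -0.30 to 0.65) for ID2 and 0.10 (95% interval -0.46 to 0.67) for ID3, so differences within these intervals remain possible.

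**Figure D4:**
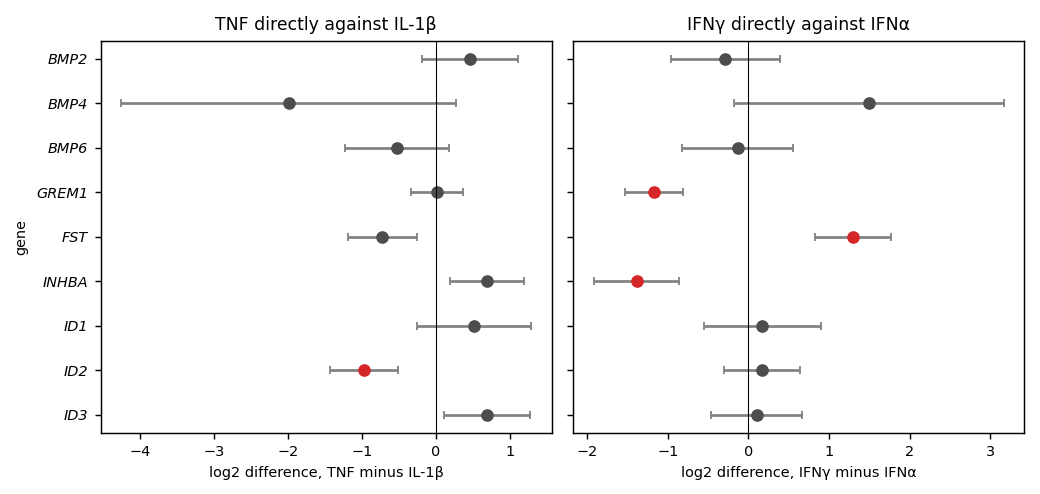
Log2 difference of each of the 9 genes between TNF and IL-1β (left) and between IFNγ and IFNα (right), with 95% intervals from edgeR; red points have an adjusted p under 0.05 over all genes tested. ID2 is red on the left, and GREM1, FST and INHBA are red on the right.

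Ordering the 11 groups by mean CPM gave 10 neighbouring pairs per gene and 90 in all, of which 4 differed in the direct test. GREM1 was higher after IFNγ than after IL-13, the lowest group (adjusted p = 0.00980). FST was higher after IL-6 than after OSM, the lowest group (4.02e-04). INHBA was higher after IFNα than after IFNγ (2.09e-04). Among the 4 groups at the top of its order, TNF, IL-1β, TGF-β1 and IFNα, neighbours did not pass, whereas groups farther apart did: TNF lay above IFNα (2.15e-05) and TGF-β1 (8.17e-05), and IL-1β above IFNα (0.0244). ID2 was higher after IL-1β than after IL-17A (0.0294). For BMP2, BMP4, BMP6, ID1 and ID3 0 of 10 neighbouring pairs differed.

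The rest of the pathway was read from 8 lists holding 84 genes, of which 46 were tested. Called genes among the 46 were 0 up and 6 down after IL-1β, 0 up and 7 down after TNF, 1 up and 7 down after IFNγ, and 7 up and 6 down after TGF-β1. IFNα gave 3 up and 2 down, OSM 1 up and 2 down, IL-17A 0 up and 2 down, and IL-13 0 up and 1 down. IL-6 and IL-22 gave 0 in edgeR. There, 2 and 4 of the 46 had an unadjusted p under 0.05, and DESeq2 called 0 and 1. The shares of all genes given above are the background. With only the libraries of the groups compared in the fit, 7 of the 8 calls after IFNγ were lost, GDF15 being kept, with adjusted p from 0.0827 for SMAD2 to 0.201 for FSTL1. In the same way 4 of 13 were lost after TGF-β1 (ACVR2A, SMAD3, SMURF2 and TGFBI), RGMB after IL-17A, RGMB and TGFBI after OSM, and SMAD2 after IFNα. GDF15 after IFNα and GDF6 after TNF, both counted above, did not pass the filter in those fits. After TNF and IL-1β, then, called pathway genes outside the 9 were lower, although INHBA and BMP2 were higher.

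Among ligand genes, 4 of 14 other BMP and GDF genes were tested. GDF15, a stress-induced ligand that acts on a brainstem receptor, was at or under 3 counts in every control and at 34.7 ± 20.5 CPM after IFNγ, at least 17.8-fold higher against 3 counts per library (adjusted p = 1.30e-05). After IL-22 it was at 15.8 ± 9.01 CPM, at least 8.11-fold higher, with an adjusted p of 0.0911, and after IFNα at 10.5 ± 6.83 CPM, at least 5.37-fold higher (adjusted p = 0.00604). GDF15 passed the filter through stimulated groups in which it was higher, so these p-values are given as a description. GDF6 was at or under 3 counts in every TNF library, beside 3.10 ± 2.65 CPM in controls, at least 1.45-fold lower (adjusted p = 0.0499). With only the TNF and unstimulated libraries in the fit GDF6 did not pass the filter, so its p is given as a description too. Of 8 other activin, nodal and myostatin genes 1 was tested, GDF11, with 0 calls. Among receptors and co-receptors, 9 of 15 were tested. ACVR1, a type I receptor for BMPs, rose after TGF-β1, from 25.8 ± 8.51 CPM to 61.1 ± 12.1 CPM (log2 fold change 1.25, adjusted p = 0.00789). ACVR2A, a type II receptor for activins and BMPs, fell after TNF, from 125 ± 23.7 CPM to 61.0 ± 19.1 CPM (log2 fold change -1.04, adjusted p = 4.29e-04). It also fell after TGF-β1 and IFNγ (-0.81 and -0.72). TGFBR3, the co-receptor betaglycan, fell after IFNγ (log2 fold change -1.32, adjusted p = 0.0125). Chosen after their values were seen, BMPR2, the main type II BMP receptor, fell after TNF (log2 fold change -1.0, adjusted p = 1.25e-04), and RGMB, a BMP co-receptor, fell after IL-17A and OSM (-1.02 and -0.79).

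Of 20 other antagonists and modulators 11 were tested. NOG, which encodes the BMP antagonist noggin, fell after TGF-β1, from 84.0 ± 20.7 CPM to 25.5 ± 21.1 CPM (log2 fold change -1.68, adjusted p = 6.31e-04). TWSG1, a BMP-binding modulator, fell after TGF-β1 and IFNγ (-1.38 and -0.97), and FSTL1, a follistatin-like protein, fell after IFNγ (log2 fold change -0.53, adjusted p = 0.00919). FST, by contrast, rose after both of these cytokines. Among 10 SMAD genes and their inhibitors, 9 were tested. SMAD9, which transmits BMP signals and is itself a BMP target, fell after TGF-β1 (log2 fold change -2.03, adjusted p = 4.96e-06) and TNF (log2 fold change -1.76, adjusted p = 1.32e-05), and less after IL-1β and IFNγ (-0.87 and -0.86). Its direction after TGF-β1, TNF and IFNγ was opposite to that of ID1 and ID3, which are also BMP targets. SMAD3 fell after TGF-β1 (log2 fold change -1.65, adjusted p = 0.00137). SMURF2, a ubiquitin ligase that limits SMAD signaling, fell after OSM, IL-1β, TNF and TGF-β1, with values of -1.22, -1.13, -1.02 and -0.88. Chosen after their values were seen, SMAD2 fell after IFNα and IFNγ (-0.82 and -0.93), and SMAD5 fell after IFNα (-1.08).

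Of 9 other BMP target genes 4 were tested, and SMAD9 was the only one of them called after any cytokine. Of 6 helix-loop-helix genes, most of whose proteins are partners of ID proteins, 5 were tested. TCF4, an E protein, rose after TGF-β1 (log2 fold change 1.06, adjusted p = 4.43e-04) and IFNα (log2 fold change 0.81, adjusted p = 0.00338). The 7 target genes of SMAD2 and SMAD3 were all tested. TGF-β1 raised 5 of them, with a median log2 fold change of 1.35 beside -0.02 over all genes, and lowered 0. CCN2, a matricellular protein, went from 298 ± 92.4 CPM to 1205 ± 198 CPM (log2 fold change 2.02, adjusted p = 6.55e-09), and PMEPA1, an inhibitor of SMAD signaling, rose as well (log2 fold change 2.25, adjusted p = 0.0443). IL-1β lowered 4 of the 7 (median -1.15 beside -0.01 over all genes), among them CCN2 (log2 fold change -1.48, adjusted p = 2.43e-06) and LTBP2, a matrix protein (log2 fold change -1.72, adjusted p = 0.00145). Both TGF-β1 and IL-1β had raised INHBA. After TNF 2 of the 7 were lower (median -0.64). TGFBI, a matrix protein gene chosen after its values were seen, fell after TNF and IL-1β (log2 fold changes -1.41 and -1.28). It also rose after TGF-β1 and OSM (0.75 and 0.55) and fell after IFNγ (-0.52). With only the libraries compared, its calls after TNF and IL-1β were kept, and those after TGF-β1, OSM and IFNγ were lost. After IFNα, which raised INHBA too, CCN2 was higher (log2 fold change 1.35, adjusted p = 4.96e-06) and the median was 0.02.

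**Figure D5:**
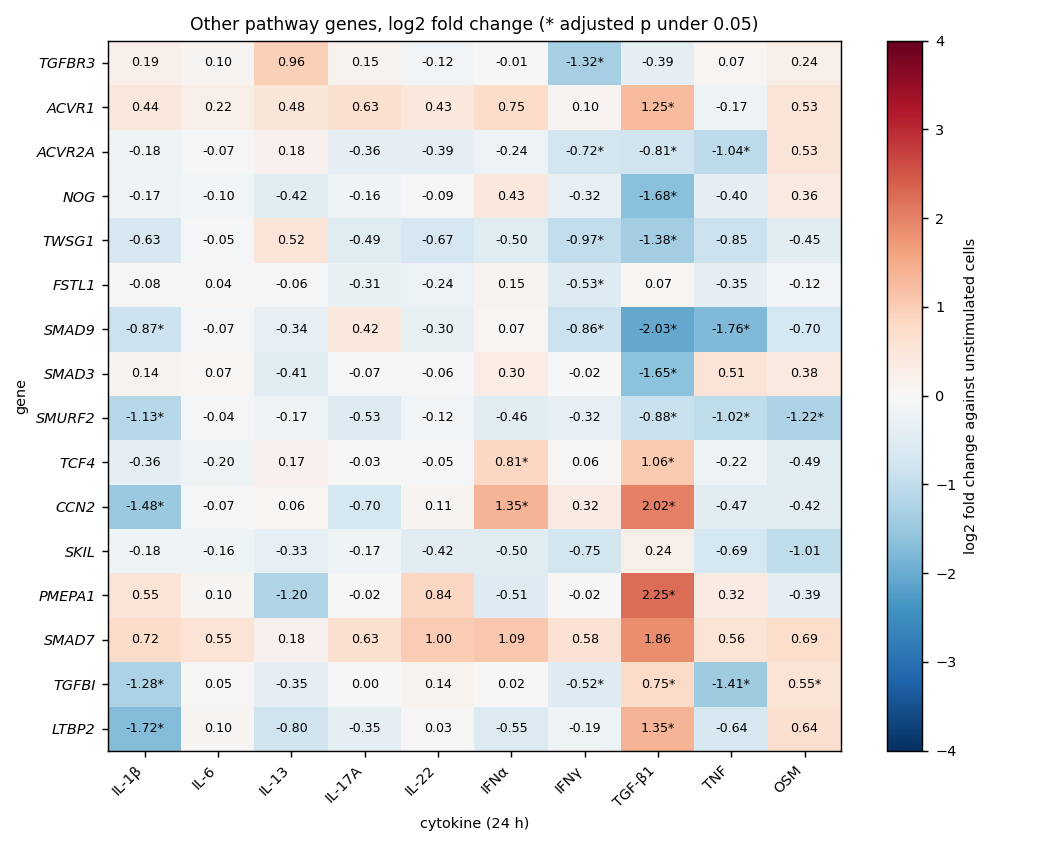
Log2 fold change against unstimulated cells of 16 other pathway genes (rows), among them 6 of the 7 target genes of SMAD2 and SMAD3 in the bottom rows, after each cytokine (columns); an asterisk marks an adjusted p under 0.05 in edgeR. In the bottom rows the TGF-β1 column is red (CCN2 2.02) and the IL-1β column is mostly blue (CCN2 -1.48).

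Genes whose group means ran most like each of the 9 were ranked by Pearson correlation over the 11 group means of log2 CPM, among 7106 other genes. For BMP2 they were PNP (0.95), TM9SF1 (0.94) and IL33 (0.93), and for INHBA PLPP5 (0.96), INSIG1 (0.96) and MMP1 (0.94). MMP1 encodes a collagenase and IL33 an alarmin cytokine. For ID2 they were SAT1 (0.96), CXCL1 (0.96) and CXCL6 (0.94), of which CXCL1 and CXCL6 encode chemokines that attract neutrophils. ID1 was most like MRPL32 (0.93), CD69 (0.91) and FIP1L1 (0.91), and ID3 most like B3GNT2 (0.95), GSTO1 (0.95) and MRPL32 (0.94), so MRPL32, a mitochondrial ribosomal protein gene, was on both lists. FST was most like RNF152 (0.96), EID1 (0.91) and BET1 (0.84), GREM1 most like FAF2 (0.87), DPH6 (0.86) and CLPTM1L (0.85), BMP6 most like VASN (0.92), MSL1 (0.86) and ETV1 (0.85), and BMP4 most like PKP4 (0.93), CDR2 (0.90) and STK24 (0.89). With 11 points that share controls and scaling, high values are easily reached among so many genes, and they are descriptions.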

How the data were processed

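Ccd-18Co cells were profiled by bulk RNA-seq, and libraries were grouped by the sample labels. The authors checked reads with FASTQC (0.11.9) and MULTIQC (1.14), quantified them with kallisto (0.48.0) at default settings, which ignore strand, and deposited estimated counts per gene symbol, not scaled for depth. The submitters' processing notes name hg38. The transcriptome release and the step to symbols are not given in the sources used here. Of the values, 5.77% are not whole, and all were rounded.

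In R (4.3.3), edgeR (4.0.16) kept 9513 genes by filterByExpr, scaled libraries by TMM (trimmed mean of M values) and fitted all 44 libraries with 1 coefficient per group (common biological coefficient of variation 0.331, 33 residual degrees of freedom). P-values came from the quasi-likelihood test, adjusted by Benjamini-Hochberg over all genes tested within each comparison. Depth (742173 to 2213424 counts) set the limit of 3 counts per library. CPM are scaled counts. Log2 CPM used a prior count of 2.

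Besides the 9 genes, the text names up to 3 called genes per pathway list with the largest absolute fold change (mean log2 CPM of at least 1) and the 3 genes most like each of the 9 (mean log2 CPM of at least 3). Of the list genes, 1 is counted but not reported here by name. Members and lists were chosen with earlier results of these data known. Coordinates come from GENCODE release 44 and promoter windows from RefSeq (GRCh38.p14). Alternatives were DESeq2 (1.42.0), its size factors, other filters, fewer libraries, a replicate block and a fold threshold of 1.5 on the log2 scale. For the direct comparisons these were chosen after seeing the data. The code was tested on simulated data.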

Additional observations from a re-analysis of the deposited data

Results flagged for a closer look

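In 99 groups of 4 libraries (9 genes in 11 groups), 4 had a library far from the other 3 by Dixon's criterion. Chance alone marks about 1 group in 20, so 4 is no more than chance gives. BMP4 was 6.24 CPM in TGF-β1 replicate 1, against 0 to 1.06 CPM in the other replicates. It was 1.61 CPM in TNF replicate 4 and 0 in the others, all within the limit of 3 counts. ID2 was 15.0 CPM in IL-6 replicate 2, against 42.9 to 44.0 CPM. ID3 was 53.2 CPM in unstimulated replicate 2, a control of every comparison, against 96.3 to 103 CPM.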

How the results depend on the processing

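Of the 30 called combinations of gene and cytokine, 15 passed the added requirement of an absolute log2 fold change above 1.5. Apart from that requirement, 22 kept their call and direction in every alternative that tested them and 25 in those that did not leave out a library, and 0 reversed. BMP4 after TNF, 1 of the 25, was not tested with only the libraries compared, where it did not pass the filter. With 1 library left out, genes called of the 9 ranged from 4 to 5 for IL-1β, 0 to 0 for IL-6 and IL-22, 2 to 3 for IL-13, 0 to 3 for IL-17A (0 without unstimulated replicate 2), 4 to 5 for IFNα, 3 to 5 for IFNγ, 3 to 4 for TGF-β1, 4 to 6 for TNF (7 with all libraries, 4 without unstimulated replicate 2) and 2 to 2 for OSM. The direct comparisons ranged from 0 to 1 for TNF with IL-1β and from 3 to 3 for IFNγ with IFNα. With DESeq2's test, IL-22 had 1 of the 9 genes and 1 list gene called, and GREM1 after IL-1β, BMP2 after IL-13 and IFNγ, and ID1 after IL-17A were gained (adjusted p = 0.0440, 0.0271, 0.0276 and 0.0152). With DESeq2's size factors, BMP2 after IFNγ was gained (0.0455). With all genes of any count, IL-17A had 4 of the 9 and 4 list genes and IL-22 had 2 list genes. There BMP2 after IL-13 and IFNγ, INHBA after IFNγ, and ID1 and ID3 after IL-17A were gained (adjusted p = 0.00346, 0.00964, 0.0472, 0.0297 and 0.0356), while ID2 after IFNγ and GREM1 after TNF were lost (adjusted p = 0.0997 and 0.113). With only the libraries compared, TNF had 4 of the 9, and list genes numbered 1 for IL-17A, 3 for IFNα, 1 for IFNγ and 5 for OSM. There BMP2 after IFNα, ID2 after IFNγ, ID1 after TGF-β1, and GREM1 and ID1 after TNF were lost (adjusted p = 0.0550, 0.119, 0.0591, 0.146 and 0.0747). The fold requirement left 1 of the 9 for IL-13, 0 for IL-17A and OSM, 3 for IFNα and TNF and 2 for TGF-β1. It left 1 list gene for IL-1β, IFNα and IFNγ, 0 for IL-13, IL-17A and OSM, 5 for TGF-β1 and 2 for TNF. The causes were not tested.

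The labels do not say whether replicate numbers pair these libraries. Of 40 pairs with the same number 6 had deviations correlated above 0.1 (median 0.03), and 15 of 40 libraries were most like the control of their own number. INHBA rose in the order of replicates 1 to 4 after TNF and IFNα, and GREM1 fell in that order after IFNα, OSM, IFNγ and IL-13. BMP2 also rose in that order after TNF, IFNγ and TGF-β1, ID1 after IFNγ and IL-6, FST after IL-6 and ID2 after TGF-β1. ID1 fell in that order after TGF-β1, BMP6 after IFNα and TGF-β1, and BMP4 after IL-6. Other groups did not all keep such an order, for example INHBA and GREM1 after IL-1β. Whether libraries of the same number share an effect on single genes was not tested. With a replicate block, 1 list gene was called for IL-22 and 7 neighbouring pairs of groups differed, in place of 0 and 4. The block added 5 calls among the 9 genes (GREM1 after IL-1β, BMP2 after IL-13 and IFNγ, ID1 after IL-17A and INHBA after IFNγ). Depth limits BMP4, GDF15 and GDF6, each at or under 3 counts in every library of a group compared.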
